A study of Rattus norvegicus with 11 samples.

Results

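The EGF family of growth factors and its receptors was examined in the epithelial cells that line the rat alveolus. Of the 7 genes listed by symbol, 6 were measured on the arrays, among 4736 genes in all: the ligands Areg, Hbegf and Tgfa and the receptors Egfr, Erbb2 and Erbb3. They were read by 8 of the 7006 probe sets annotated to exactly 1 gene, and the ligand Btc had no such probe set. Total RNA was measured on 11 Affymetrix rat expression arrays, in 3 groups: cultured type II (TII) cells on day 7 (3 arrays), freshly isolated type I (TI) cells on day 0 (4 arrays) and freshly isolated TII cells on day 0 (4 arrays). The labels give no strain, age or culture condition, and do not tell whether replicate arrays stand for separate animals or cultures, so p-values reflect the spread between arrays and nothing more.

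Ligands of this family are made as membrane-anchored precursors, released by proteases of the ADAM family, and bind receptor tyrosine kinases that act in pairs. Egfr binds Areg, Tgfa, Hbegf and Btc, Erbb2 binds no ligand of its own and serves as a partner, and Erbb3 binds neuregulins but has little kinase activity. In lung epithelium the family is known for driving proliferation and repair after injury, and TII cells are the progenitors that replace the flat TI cells.

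Signal is given on the log2 scale of the deposited table, where 1 unit is a doubling, and a probe set was called when its limma p-value, adjusted by the Benjamini-Hochberg method over 8740 probe sets, was under 0.05. Array medians lay between 5.43 and 5.51. Non-overlap, with all arrays of 1 group above all of the other, was common among all genes. It held for 50.4% in fresh TI minus fresh TII, 44.5% in cultured TII minus fresh TII and 57.7% in cultured TII minus fresh TI. In the same order it held for 2, 5 and 3 of the 6 members. The source field of all 11 arrays names TI cells, so groups were taken from the sample descriptions, and listed markers were set beside them. The summed linear signal of 5 measured TI markers was 2009 to 2884 on cultured TII arrays, 9394 to 10107 on fresh TI arrays and 904 to 975 on fresh TII arrays. That of 6 TII markers was 554 to 902 on cultured TII arrays, 3169 to 9206 on fresh TI arrays and 23836 to 25638 on fresh TII arrays. The fresh TI arrays thus carried TII marker signal, led by the surfactant protein gene Sftpc, which spanned 10.73 to 12.51 there. Marker sums of other cell types were also set beside the groups, and several of their ranges overlapped. Such a sum follows its brightest markers, and markers of a list could go opposite ways. In fresh TI minus fresh TII, the mast cell markers Hdc and Ms4a2 were at -0.62 and 0.34. The 8 fibroblast and smooth muscle markers summed to 785 to 1226 in cultured TII, 1474 to 3039 in fresh TI and 594 to 842 in fresh TII cells. The 3 measured airway markers summed to 329.55 to 467 in cultured TII, 260.16 to 312 in fresh TI and 2839 to 3522 in fresh TII cells. The 9 macrophage and leukocyte markers summed to 416 to 654 in cultured TII, 414 to 432 in fresh TI and 360.24 to 419 in fresh TII cells. The 5 measured endothelial markers summed to 187 to 203 in cultured TII, 211 to 295 in fresh TI and 207 to 226 in fresh TII cells. The 6 mast cell markers summed to 89.9 to 104 in cultured TII, 108 to 136 in fresh TI and 124 to 149.7 in fresh TII cells. The 2 mesothelial markers, of which Krt19 is also epithelial, summed to 276 to 517 in cultured TII, 795 to 929 in fresh TI and 569 to 635 in fresh TII cells. No marker was at 0, since the lowest value on any array was 1.37. RNA quality was read from the beta-actin control probe sets, whose 3′ minus 5′ signal was -0.33 to -0.083 in cultured TII, 0.212 to 0.425 in fresh TI and 0.324 to 0.431 in fresh TII cells. For GAPDH it was 0.302 to 0.451 in cultured TII, 0.412 to 0.685 in fresh TI and 0.474 to 0.569 in fresh TII cells, so that cultured TII and fresh TI arrays overlapped. The part of these cell types and of RNA quality in the differences below was not tested.

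Among the ligands, amphiregulin (Areg) was the member that differed most between the groups. Areg encodes an EGF receptor ligand with a heparin-binding region. Its promoter as RefSeq places it, on the minus strand of GRCr8 at chr14:17265592-17265891, is shown because it belongs to that member. Capitals mark TGACGTCA, the cyclic AMP response element, which starts 91 bases before the transcript start, and GGGCGG, a GC box, which starts 82 bases before it.
Areg: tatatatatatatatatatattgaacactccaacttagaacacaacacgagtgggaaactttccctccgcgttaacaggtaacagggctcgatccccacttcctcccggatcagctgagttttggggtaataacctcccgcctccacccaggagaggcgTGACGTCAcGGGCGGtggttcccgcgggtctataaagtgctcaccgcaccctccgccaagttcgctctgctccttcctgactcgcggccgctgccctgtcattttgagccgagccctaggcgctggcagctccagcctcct
Both strands of the window from 250 bases before to 50 bases after the start were searched, also for the AP-1 motif TGANTCA, which was not found in it. TGACGTCA was in 1.83% of the 33469 rat promoters of the same length, TGANTCA in 7.33% and GGGCGG in 33.1%. Promoters were given for 6 of the 7 members, and TGACGTCA was in none of the other 5 (Hbegf, Tgfa, Egfr, Erbb2 and Btc). A match is a run of letters and not a measured binding site.

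Areg had 8.72, 9.14 and 9.10 in cultured TII cells, 5.43, 5.36, 5.41 and 5.44 in fresh TI cells and 6.79, 7.14, 6.95 and 7.26 in fresh TII cells (probe set X55183_at). The groups did not overlap: every cultured array lay above every fresh TII array, and every fresh TI array lay below both. Means were 8.99 ± 0.23 in cultured TII (SD, n = 3), 5.41 ± 0.04 in fresh TI (SD, n = 4) and 7.04 ± 0.21 in fresh TII cells (SD, n = 4). Fresh TI cells were lower than fresh TII cells by 3.08-fold (log2 difference -1.63, SE 0.11, limma adjusted p = 1.3e-07). Cultured TII cells were higher than fresh TII cells by 3.88-fold (1.95, SE 0.12, adjusted p = 4.5e-08). Between cultured TII and fresh TI cells the difference was 3.58 (95% interval 3.32 to 3.84, adjusted p = 3.7e-10), an 11.96-fold difference that ranked 5th from the highest among 4736 genes. The fresh TI values lay at about the array medians, and with no detection calls used here it is not known whether they stood above background, so differences against fresh TI cells may be lower bounds in size. In these bulk samples fewer expressing cells and less RNA per cell cannot be told apart. The comparisons share arrays, so the same 4 fresh TII arrays stand behind the first 2 of these differences.

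Transforming growth factor alpha (Tgfa), an EGF receptor ligand with high affinity, showed another order of levels. Tgfa had 5.68, 5.66 and 5.57 in cultured TII cells, 5.63, 5.31, 5.64 and 5.89 in fresh TI cells and 6.11, 6.08, 5.88 and 6.02 in fresh TII cells (M31076_at). Every fresh TII array lay above every cultured array, while the highest fresh TI array, replicate 4, was just above the lowest fresh TII array. Tgfa values lay near the array medians, and whether they stood above background is not known. Tgfa was lower in fresh TI than in fresh TII cells by 1.33-fold (-0.41, SE 0.11, limma adjusted p = 0.0067). It was lower in cultured than in fresh TII cells by 1.31-fold (-0.39, SE 0.11, adjusted p = 0.019). That call in culture was lost without fresh TII replicate 1 (adjusted p = 0.052), fresh TII replicate 2 (0.05017) or cultured TII replicate 3 (0.066). Cultured TII and fresh TI cells differed by 0.02 (95% interval -0.23 to 0.27, adjusted p = 0.88), which leaves their order unsettled.

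Heparin-binding EGF-like growth factor (Hbegf), a membrane-anchored ligand of Egfr and Erbb4, passed the test in no comparison. On probe set L05489_at it had 6.37, 5.85 and 5.69 in cultured TII cells, 5.82, 5.64, 5.77 and 5.82 in fresh TI cells and 5.91, 5.99, 5.61 and 5.98 in fresh TII cells. Cultured replicate 1 was the highest of the 11 arrays, and all 3 groups overlapped. On rc_AI059540_at it had 5.29, 5.09 and 5.18 in cultured TII cells, 5.501, 5.21, 5.53 and 5.78 in fresh TI cells and 5.21, 5.25, 5.66 and 5.30 in fresh TII cells. These groups overlapped too. Hbegf values lay around the array medians and are not known to stand above background, so a change may have been missed. The probe sets gave differences of opposite sign in all 3 comparisons. For fresh TI minus fresh TII they were -0.11 (95% interval -0.40 to 0.18) on L05489_at and 0.15 (-0.12 to 0.42) on rc_AI059540_at. For cultured TII minus fresh TII they were 0.10 (-0.21 to 0.41) and -0.17 (-0.46 to 0.12) in the same order of probe sets. For cultured TII minus fresh TI they were 0.21 (-0.10 to 0.52) and -0.32 (-0.61 to -0.03), the second with a limma adjusted p of 0.054. That second difference passed with array weights (-0.31, adjusted p = 0.045), without fresh TII replicate 3 (adjusted p = 0.032) and without fresh TI replicate 2 (-0.42, adjusted p = 0.012). Under other alternatives its adjusted p rose as far as 0.16.

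**Figure D1:**
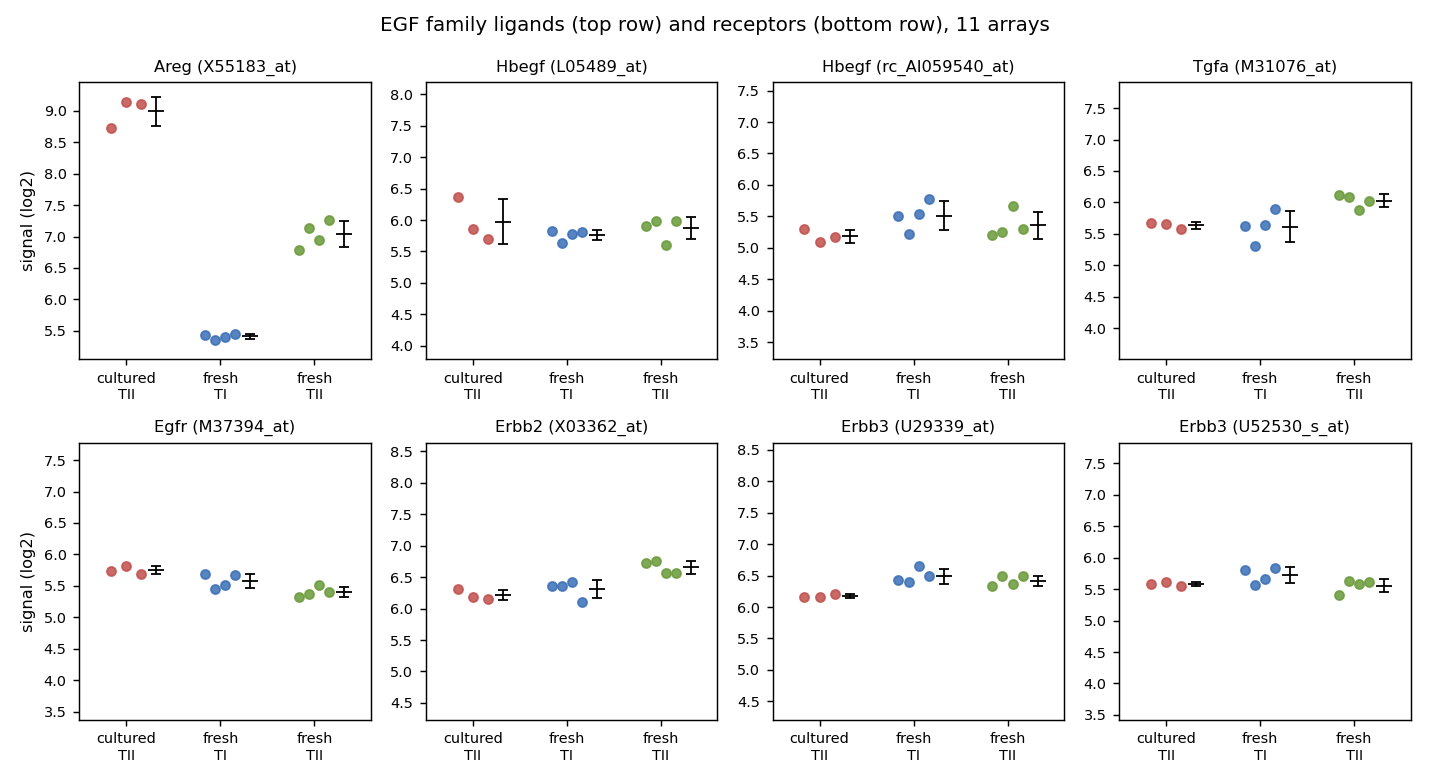
Signal (log2, vertical axis) of the 8 EGF family probe sets on 11 arrays: cultured TII (red, 3 arrays), fresh TI (blue, 4 arrays) and fresh TII (green, 4 arrays), with ligands in the top row and receptors in the bottom row. Each point is an array, bars are the mean ± SD, and every panel spans the same number of log2 units, so panels are read for differences and not for levels between genes. Areg separates into 3 groups, with means of 8.99 in cultured TII, 5.41 in fresh TI and 7.04 in fresh TII cells, while the other panels differ by under 1 log2 unit.

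Among the receptors, Egfr, the receptor for Areg and Tgfa, was higher in cultured than in fresh TII cells. It had 5.73, 5.82 and 5.69 in cultured TII cells, 5.68, 5.44, 5.52 and 5.67 in fresh TI cells and 5.32, 5.38, 5.51 and 5.402 in fresh TII cells (M37394_at). All cultured arrays lay above all fresh arrays, though the lowest (5.692) was barely above the highest fresh TI array (5.683). Fresh TI and fresh TII arrays overlapped. All Egfr values lay near the array medians, and whether they stood above background is not known. Cultured TII cells were higher than fresh TII cells by 1.27-fold (0.35, SE 0.08, limma adjusted p = 0.0042). Neighbours in the order of levels did not pass the test: cultured TII minus fresh TI was 0.17 (95% interval -0.01 to 0.34, adjusted p = 0.085). Fresh TI minus fresh TII was 0.18 (0.02 to 0.34, adjusted p = 0.059). The first of these passed with array medians set equal (0.22, adjusted p = 0.026), with medians and standard deviations set equal (0.20, adjusted p = 0.0399) and with array weights (0.24, adjusted p = 0.016). With single arrays left out, its adjusted p rose as far as 0.24. The second passed without fresh TII replicate 3 (0.21, adjusted p = 0.0455) and without fresh TI replicate 2 (0.22, adjusted p = 0.025). It shrank to 0.13 with array medians set equal (adjusted p = 0.12) and to 0.15 after quantile normalization (adjusted p = 0.11). The deposited median of all probe sets was 0.12 in that comparison, and relative to it Egfr stood at 0.05.

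Erbb2, the partner receptor with no ligand of its own, was highest in fresh TII cells. It had 6.30, 6.19 and 6.16 in cultured TII cells, 6.36, 6.36, 6.42 and 6.11 in fresh TI cells and 6.72, 6.75, 6.56 and 6.57 in fresh TII cells (X03362_at). Every fresh TII array lay above all arrays of the other groups. Erbb2 was lower in fresh TI than in fresh TII cells by 1.27-fold (-0.34, SE 0.08, limma adjusted p = 0.0042). It was lower in cultured than in fresh TII cells by 1.35-fold (-0.43, SE 0.09, adjusted p = 0.0018). Cultured TII and fresh TI arrays overlapped, with a difference of -0.09 (95% interval -0.29 to 0.10).

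Tgfa and Erbb2 were both lower in fresh TI and in cultured TII cells than in fresh TII cells, and their RefSeq promoters (plus strand, GRCr8) are shown for that shared direction. The Tgfa window is chr4:120175469-120175768 and the Erbb2 window is chr10:83907351-83907650. Capitals mark GGGCGG or its reverse complement. It starts 154 bases before the transcript start used for the window in Tgfa, with a second copy after it, and 98 bases before in Erbb2. The RefSeq genes themselves begin further upstream, at chr4:120175549 for Tgfa and chr10:83907491 for Erbb2, inside these windows. All marked stretches of these 2 windows therefore lie within the annotated genes.
Tgfa: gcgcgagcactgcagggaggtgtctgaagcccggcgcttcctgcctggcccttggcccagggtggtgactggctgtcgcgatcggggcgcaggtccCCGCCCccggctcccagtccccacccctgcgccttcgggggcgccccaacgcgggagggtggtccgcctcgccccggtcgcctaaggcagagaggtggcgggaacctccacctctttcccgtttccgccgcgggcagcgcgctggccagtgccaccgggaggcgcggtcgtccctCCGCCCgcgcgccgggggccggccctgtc
Erbb2: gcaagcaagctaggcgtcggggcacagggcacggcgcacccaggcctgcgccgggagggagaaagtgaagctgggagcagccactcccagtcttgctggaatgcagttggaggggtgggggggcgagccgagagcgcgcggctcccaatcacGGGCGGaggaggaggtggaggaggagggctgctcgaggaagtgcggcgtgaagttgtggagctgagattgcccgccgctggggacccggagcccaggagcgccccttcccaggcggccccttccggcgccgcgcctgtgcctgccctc
The share of G and C was 76.7% in Tgfa and 71.3% in Erbb2. It was 68.7% in Hbegf, 64.3% in Egfr, 62.7% in Btc and 56.0% in Areg. GGGCGG was also in the Areg, Egfr and Btc windows and not in that of Hbegf, so it is not particular to this pair. TGANTCA was in none of the 6.

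Erbb3, the neuregulin receptor, was lower in culture on 1 of its 2 probe sets. On U29339_at it had 6.16, 6.16 and 6.21 in cultured TII cells, 6.42, 6.39, 6.65 and 6.496 in fresh TI cells and 6.34, 6.49, 6.37 and 6.49 in fresh TII cells. The cultured arrays lay below all fresh arrays, and the fresh groups overlapped. Cultured TII cells were lower than fresh TI cells by 1.24-fold (-0.31, SE 0.08, limma adjusted p = 0.0048) and lower than fresh TII cells by 1.18-fold (-0.24, SE 0.08, adjusted p = 0.031). The call against fresh TII cells was lost without fresh TII replicate 2 or 4 (adjusted p = 0.085 and 0.086). It was also lost without cultured replicate 1, 2 or 3 (adjusted p = 0.085, 0.087 and 0.052) and on the mean of both probe sets (-0.11, adjusted p = 0.27). On U52530_s_at Erbb3 ran from 5.55 to 5.61 in cultured TII, 5.57 to 5.84 in fresh TI and 5.41 to 5.64 in fresh TII cells. All groups overlapped there, and no comparison passed the test (cultured TII minus fresh TII 0.02, 95% interval -0.16 to 0.21). Values on U52530_s_at lay near the array medians and are not known to stand above background. Fresh TI minus fresh TII was 0.07 on U29339_at (95% interval -0.09 to 0.23) and 0.16 on U52530_s_at (-0.01 to 0.33). The second passed without fresh TI replicate 2 (0.21, adjusted p = 0.033) and shrank to 0.12 with array medians set equal (adjusted p = 0.18).

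**Figure D2:**
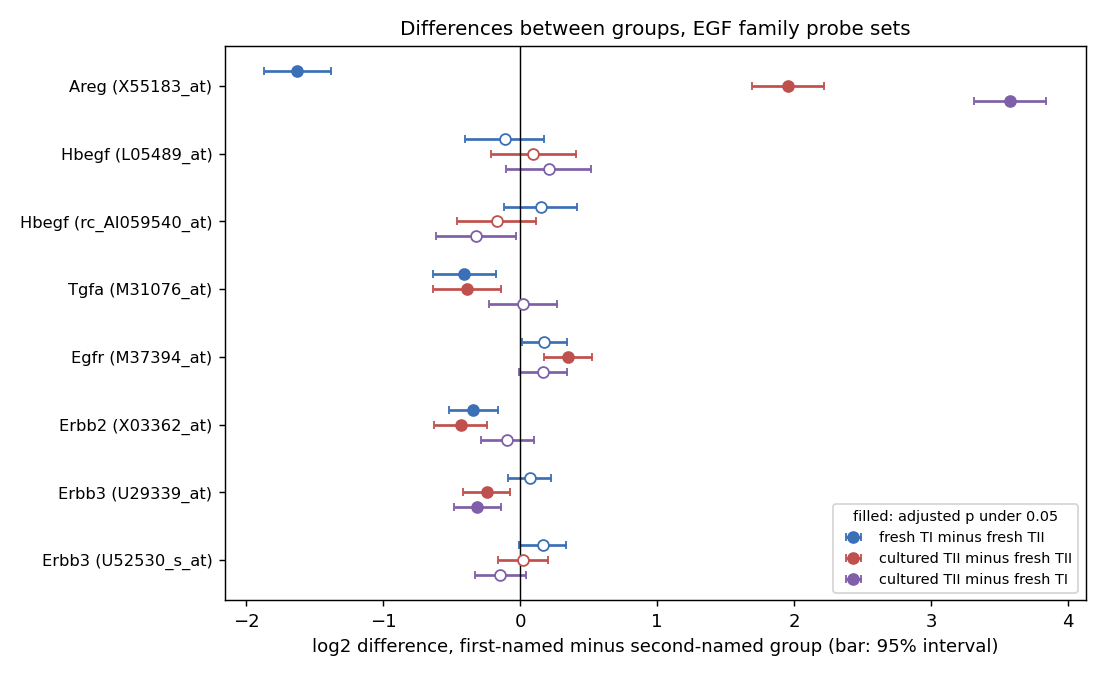
Log2 difference (horizontal axis) for each EGF family probe set (rows) in fresh TI minus fresh TII (blue), cultured TII minus fresh TII (red) and cultured TII minus fresh TI cells (purple), with 95% intervals from limma and filled points where the adjusted p was under 0.05. Areg lies at -1.63, 1.95 and 3.58 in these comparisons, and all other filled points lie within 0.5 log2 units of 0.

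Counted by gene, with the brighter probe set standing for a gene, 3 of 6 members passed the test in fresh TI minus fresh TII (50%, where 54.2% of all genes did). None of them was higher (33.0% of all genes were), and 3 were lower (Areg, Tgfa and Erbb2, where 21.2% of all genes were lower). The share called was near that of all genes. The median member difference was -0.23, against 0.11 for all genes. In cultured TII minus fresh TII, 5 of 6 passed (83.3%, where 34.6% of all genes did). Areg and Egfr were higher (20.5% of all genes were), and Erbb2, Tgfa and Erbb3 were lower (14.0% of all genes were). The median member difference was -0.07, against -0.01 for all genes. This count was 3 without fresh TII replicate 2, where 873 of all 4736 genes were called higher and 592 lower. It was also 3 without cultured TII replicate 3, where 899 of all genes were called higher and 612 lower. In cultured TII minus fresh TI, 2 of 6 passed (33.3%, where 60.0% of all genes did). Areg was higher (25.8% of all genes were) and Erbb3 was lower (34.2% of all genes were). There the median over all 8740 probe sets was -0.13 as deposited and -0.02 with array medians and standard deviations set equal. Relative to the deposited median, Areg stood at 3.71 and Erbb3 at -0.18 in that comparison. The direction of Erbb2, which did not pass there, turned to 0.04. The members were chosen with earlier results of these data known, so all these shares are descriptions and not tests.

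Of the other ligands and receptors listed, 4 of 8 were measured. Neuregulin 1 (Nrg1), a ligand of Erbb3 and Erbb4, was the only gene that passed, in every comparison. That is 25.0% of those measured in each, where 54.2% of all genes passed in fresh TI minus fresh TII. The share of all genes was 34.6% in cultured TII minus fresh TII and 60.0% in cultured TII minus fresh TI. On its brightest probe set, U02322_s_at, Nrg1 had 7.27, 7.51 and 7.49 in cultured TII cells, 6.68, 6.86, 6.68 and 6.69 in fresh TI cells and 6.06, 6.33, 6.34 and 6.28 in fresh TII cells. No groups overlapped, with cultured TII highest and fresh TII lowest. The differences were 0.48 for fresh TI minus fresh TII (SE 0.09, limma adjusted p = 0.00058), 1.17 for cultured TII minus fresh TII (SE 0.09, adjusted p = 4.4e-07) and 0.69 for cultured TII minus fresh TI (SE 0.09, adjusted p = 5.2e-05). Nrg1 was read by 7 probe sets, and 6 of them rose in cultured against fresh TII cells, by 0.69 to 2.05. The greatest of these was on U02320_s_at, with 5.47, 5.11 and 5.28 in cultured TII cells, 3.22, 3.20, 3.41 and 3.44 in fresh TI cells and 3.25, 3.19, 3.23 and 3.26 in fresh TII cells. There the fresh groups overlapped (0.08, adjusted p = 0.43) and only the cultured arrays stood above the rest. The fresh values of this probe set were among the dimmer ones on the arrays, and whether they stood above background is not known, so its 2.05 may be a lower bound. Fresh values were dim on U02316_s_at, U02318_at and U02315_at too, and U02316_s_at stayed dim in cultured TII cells (mean 3.72). The 6 probe sets read the same gene, so they are not independent. U02315_at and U02315_g_at also come from the same sequence record. The exception was M92430_at, with 5.02, 5.06 and 5.01 in cultured TII cells, 5.62, 5.43, 5.38 and 5.71 in fresh TI cells and 5.08, 5.204, 5.17 and 5.22 in fresh TII cells. On it fresh TI cells were highest, by 0.37 over fresh TII cells (adjusted p = 0.0022), and cultured TII cells were lower than fresh TI cells (-0.51, adjusted p = 0.00032), while cultured minus fresh TII was -0.14 (adjusted p = 0.26). Egf, a further Egfr ligand, Nrg2 and the receptor Erbb4 passed in none of the comparisons by their brightest probe sets, with differences between -0.30 and 0.16. The widest of these was Erbb4 in cultured TII minus fresh TI (-0.30, adjusted p = 0.061). The other Egf probe set, U04842_at, was lower in cultured than in fresh TII cells (-0.22, adjusted p = 0.046).

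Of the proteases that release the ligands and their partners, 2 of 9 were measured. Both were higher in culture against fresh TII cells, where 20.5% of all genes were higher, and against fresh TI cells, where 25.8% were. Adam17, the protease known from mouse cells to shed Areg, Tgfa and Hbegf, had 8.05, 7.94 and 8.004 in cultured TII cells, 6.16, 6.35, 6.43 and 5.92 in fresh TI cells and 5.997, 6.27, 6.06 and 6.23 in fresh TII cells. The cultured arrays stood apart and the fresh groups overlapped. Adam17 rose 3.63-fold in cultured against fresh TII cells (1.86, SE 0.11, limma adjusted p = 4.4e-08) and differed by 0.08 between fresh TI and fresh TII cells (95% interval -0.16 to 0.31). Adam10, known from mouse cells to shed Egf and Btc, had 6.46, 6.83 and 6.88 in cultured TII cells, 5.78, 5.98, 6.14 and 6.08 in fresh TI cells and 5.89, 5.77, 5.92 and 5.63 in fresh TII cells. It rose 1.90-fold in cultured against fresh TII cells (0.92, SE 0.12, adjusted p = 4.1e-05), and again the fresh groups overlapped.

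**Figure D3:**
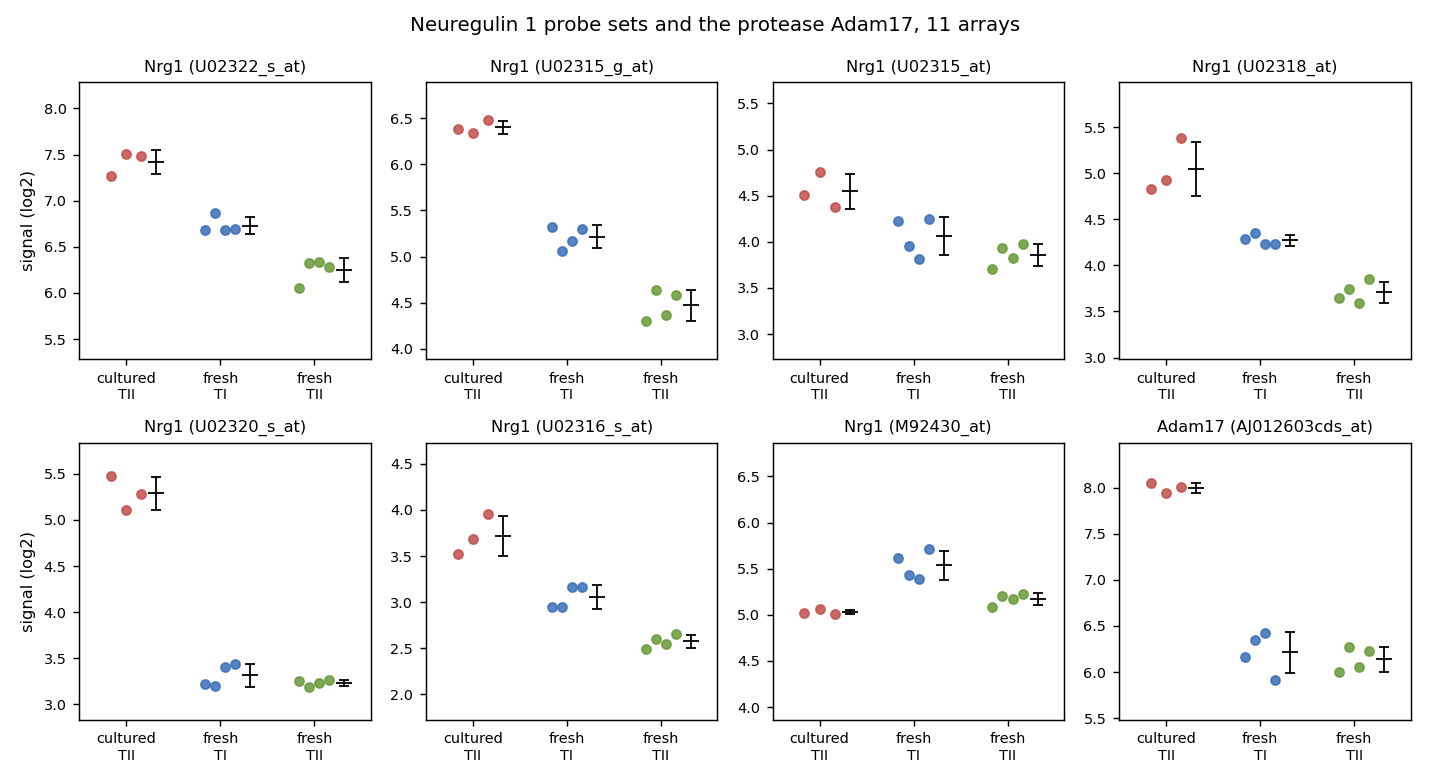
Signal (log2, vertical axis) of the 7 Nrg1 probe sets and of Adam17 on 11 arrays, in cultured TII (red), fresh TI (blue) and fresh TII cells (green), with each point an array and bars the mean ± SD. Cultured arrays lie highest on 6 of the 7 Nrg1 probe sets and on Adam17, and lowest on M92430_at, where their mean is 5.03, against 5.54 in fresh TI and 5.17 in fresh TII cells.

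Feedback inhibitors and trafficking proteins limit how long the receptors signal, and 12 of the 21 listed were measured. In fresh TI minus fresh TII cells 8 were lower (66.7% of those measured, where 21.2% of all genes were lower) and none was higher (33.0% of all genes were). Their median was -0.70, against 0.11 for all genes. The list was chosen with earlier results of these data known, so its shares are a description and not a test. Dusp6, a phosphatase of ERK kinases, had 6.35, 6.80, 6.58 and 6.03 in fresh TI cells and 8.51, 8.70, 8.93 and 8.71 in fresh TII cells, a 4.83-fold difference (-2.27, SE 0.16, limma adjusted p = 1.9e-07). Errfi1, which blocks the EGF receptor kinase, had 7.82, 7.71, 7.73 and 7.75 in fresh TI cells and 9.10, 9.49, 9.23 and 9.44 in fresh TII cells (-1.56, SE 0.09, adjusted p = 3.0e-08). Neither gene's groups overlapped on these probe sets. Errfi1 was uneven across its others, at -3.22 on rc_AI169756_s_at and -0.13 on the dim M23572_at (adjusted p = 0.25). Spry1, an inhibitor of receptor tyrosine kinase signalling, was lower by 1.99-fold (-0.99, adjusted p = 2.9e-06), and Socs3, an inhibitor of cytokine and JAK signalling, by 1.80-fold (-0.85, adjusted p = 4.9e-05).

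In cultured TII minus fresh TII cells 5 of these 12 were lower (14.0% of all genes were) and 2 higher (20.5% of all genes were). Together that is 58.3% of those measured, where 34.6% of all genes passed, and their median was -0.20, against -0.01 for all genes. Errfi1 had 7.81, 7.55 and 7.68 in cultured TII cells, below all fresh TII arrays (-1.63, SE 0.10, limma adjusted p = 4.0e-08). Its other probe sets were again uneven, at -2.30 on rc_AI169756_s_at and -0.31 on the dim M23572_at (adjusted p = 0.039). Socs3 (-0.96, adjusted p = 3.1e-05) and Dusp5, a nuclear ERK phosphatase (-0.89, adjusted p = 6.6e-06), were also lower. The small GTPases of the endosome were the 2 that rose: Rab5a by 1.24 (SE 0.09, adjusted p = 2.1e-07) and Rab7a by 0.78 (adjusted p = 0.00057). Rab7a, like Dusp6 (-0.69, adjusted p = 0.0077) and Spry1 (-0.64, adjusted p = 0.00026) in this comparison, lay outside the naming rule and was named after its value was seen. Against fresh TI cells, 6 were higher (25.8% of all genes were) and 1 lower (34.2% of all genes were) in cultured TII cells. Together that is 58.3%, near the 60.0% of all genes that passed, and their median was 0.19, against -0.11 for all genes. Dusp6 had 7.68, 8.12 and 8.26 in cultured TII cells, above all fresh TI arrays (1.58, SE 0.18, adjusted p = 1.1e-05). Dusp6 levels thus ran lowest in fresh TI, between in cultured TII and highest in fresh TII cells, with no overlap. Rab5a was higher than in fresh TI cells by 1.31 (adjusted p = 1.7e-07). The member that was lower was Dusp4, also named after its value was seen (-0.25, adjusted p = 0.015).

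Adaptors and cascade kinases carry the signal from the receptor, and 19 of the 32 listed were measured. In fresh TI minus fresh TII cells 5 were higher (33.0% of all genes were) and 5 lower (21.2% of all genes were). In all 52.6% passed, near the 54.2% of all genes that did. The higher ones with the greatest differences were Nras, a Ras GTPase (0.49, limma adjusted p = 3.9e-05), Pik3cb, a catalytic subunit of PI3 kinase (0.47, adjusted p = 0.00025), and Src, a tyrosine kinase (0.32, adjusted p = 0.0037). The lower ones with the greatest differences fell outside the naming rule and were named after their values were seen: the ERK-activating kinases Map2k2 (-0.62, adjusted p = 5.1e-06) and Map2k1 (-0.50, adjusted p = 0.0031), and the adaptor Grb2 (-0.49, adjusted p = 0.00073). Their other probe sets disagreed in part: 1 of Grb2 (0.62, adjusted p = 0.0011) and 1 of Map2k1 (0.34, adjusted p = 0.016) were higher, while those of Map2k2 were -0.55 and -0.15. Against fresh TII cells, 7 were higher (20.5% of all genes were) and 2 lower (14.0% of all genes were) in cultured TII cells. In all 47.4% passed, where 34.6% of all genes did. Rasa1, a GTPase-activating protein that switches Ras off, was higher by 1.94-fold (0.96, SE 0.11, adjusted p = 1.4e-05). Its means were dim, at 3.68 in cultured and 2.72 in fresh TII cells, and whether they stood above background is not known. Plcg1, a phospholipase recruited to the receptor, was lower by 1.64-fold (-0.71, SE 0.09, adjusted p = 3.7e-05). Against fresh TI cells, 8 were higher (25.8% of all genes were) and 5 lower (34.2% of all genes were) in cultured TII cells. In all 68.4% passed, where 60.0% of all genes did. Map2k1, the kinase that activates ERK, was higher on its brightest probe set (1.16, SE 0.12, adjusted p = 8.3e-06) and on D14591_s_at (1.07), and lower on rc_AI178835_at (-0.53, adjusted p = 0.0016). Lower in culture against fresh TI cells were Src (-0.43, adjusted p = 0.00077), Plcg1 (-0.41, adjusted p = 0.0021), the phosphatase Ptpn11 (-0.40, adjusted p = 0.011) and the transcription factor Stat5a (-0.33, adjusted p = 0.0028). Other Ptpn11 probe sets ran from -0.34 to 0.23. The Ptpn11 call was lost on the mean of its probe sets (-0.18, adjusted p = 0.102) and without cultured TII replicate 2 (-0.32, adjusted p = 0.059). Over the whole list of 37 measured genes, 19 passed in fresh TI minus fresh TII (51.4%, near the 54.2% of all genes) and 23 in cultured TII minus fresh TI (62.2%, near the 60.0% of all genes). In cultured TII minus fresh TII, 19 passed (51.4%, where 34.6% of all genes did).

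**Figure D4:**
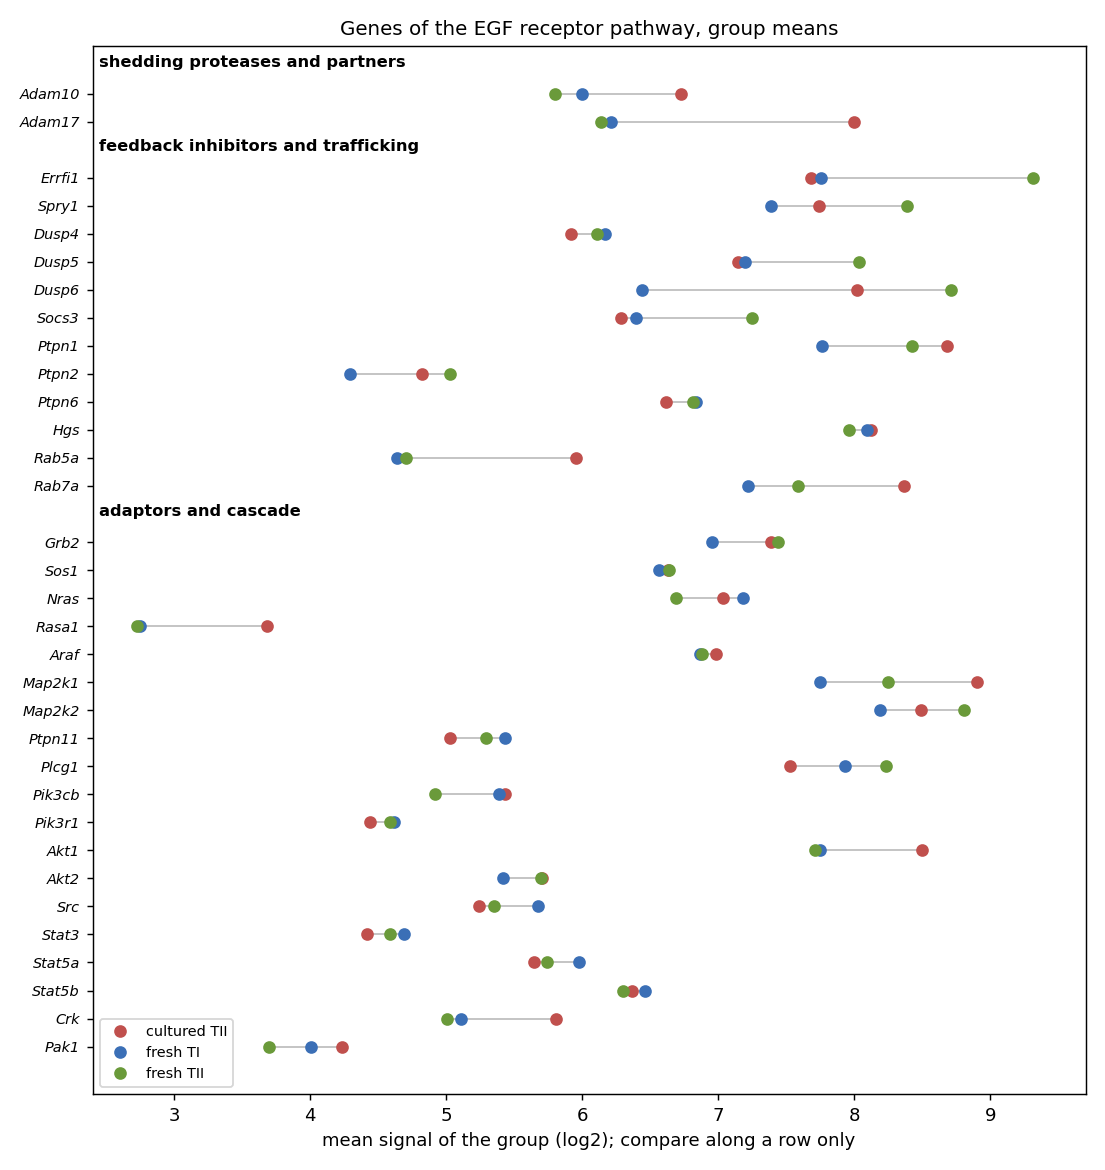
Mean signal (log2, horizontal axis) of the measured shedding proteases, feedback and trafficking genes, and adaptors and cascade genes (rows) in cultured TII (red), fresh TI (blue) and fresh TII cells (green), with lines joining the lowest and highest mean of a gene. Levels are compared along a row only. Dusp6, Errfi1, Spry1 and Socs3 have their highest mean in fresh TII cells (8.71, 9.31, 8.38 and 7.25), and Adam17 and Rab5a have theirs in cultured TII cells (7.998 and 5.95).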

How the data were processed

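Per the labels, total RNA was converted to cDNA, labelled with biotin and hybridised to 1 array per sample. The values deposited by the authors are log2 signals of probe sets. Their base was read from the highest value, 13.16, which is 9172 on the log2 scale and 520737 on a natural log scale, where it exceeds the 65535 that a 16-bit scanner can record. Background correction, summarisation, normalization and detection calls are not given in the sources used here, so no value is known to be above background. The deposited values were used unchanged. Of 8799 probe sets, 59 controls were left out and 8740 tested with no filter, of which 7006 had 1 annotated gene, 308 several and 1426 none. Each gene was represented by its brightest probe set on average.

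The 11 arrays were fitted jointly in limma 3.58.1 under R 4.3.3, with a mean for each of the 3 groups and two-sided moderated tests, adjusted by the Benjamini-Hochberg method within a comparison and tested on simulated data. Precision is limited by 3 or 4 arrays per group. All probe sets of the members were named, and, of the other pathway genes, the 4 highest and 4 lowest differences among those called in a comparison. Adam10, Egf, Nrg2 and Erbb4 were named outside this rule, as were the genes said above to be named after their values were seen. The members and the gene lists were chosen with earlier results of these data known. Promoters came from RefSeq (GRCr8). Genome positions of probe sets were not used here. Alternatives covered scaling, a filter on dim probe sets, the variance model, array weights, the replicate block, the threshold, the probe set of a gene, and each array left out.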

Additional observations from a re-analysis of the deposited data

How the results depend on the processing

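Areg kept its direction and its call under all 20 alternatives run in each comparison, with log2 differences of -1.71 to -1.55 in fresh TI minus fresh TII, 1.78 to 2.09 in cultured TII minus fresh TII and 3.42 to 3.71 in cultured TII minus fresh TI. Of 132 recomputed counts of called genes, 128 stayed within 1.5 times the reported count. The exceptions fell in the EGF family and the pathway list. In cultured TII minus fresh TII, 3 of 6 family genes were called at an adjusted p under 0.01. Of all 4736 genes, 762 were then called higher and 491 lower. The family count ran from 3 to 5 with each array left out. In cultured TII minus fresh TI, dim probe sets (mean under the median one) were dropped. There 15 of the 24 pathway genes that remained were called, against 23 of 37 in the main fit. Of all 2700 genes that remained, 989 were called higher and 834 lower. The pathway count thus fell along with the number of genes measured.

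Directions turned only for differences that had not passed the test. On the mean of its probe sets, Hbegf was 0.0198 in fresh TI minus fresh TII, -0.0362 in cultured TII minus fresh TII and -0.0560 in cultured TII minus fresh TI. With each array left out, it ran from -0.1025 (without cultured TII replicate 1) to 0.2375 on L05489_at in cultured TII minus fresh TII. Erbb3 on U52530_s_at ran there from -0.0287 (without fresh TII replicate 1) to 0.0477. In cultured TII minus fresh TI, Tgfa ran from -0.0823 (without fresh TI replicate 2) to 0.1133 and was also below 0 without cultured TII replicate 1. Nrg1 on U02320_s_at was -0.0655 after quantile normalization and -0.0979 with array medians and standard deviations equal, in fresh TI minus fresh TII. The cause was not tested.

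Replicate numbers did not pair the arrays: arrays sharing a number had correlations of their deviations from -0.20 to 0.28 (10 pairs), and arrays with different numbers had -0.27 to 0.23 (30 pairs). With the number as a block, Erbb3 on U29339_at lost its call in cultured TII minus fresh TII (-0.23, limma adjusted p = 0.071), and no other EGF family call changed.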

Other observations

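Genes whose signal tracked a member over the 11 arrays were ranked by Pearson r among about 1257 genes that spanned at least 1 log2 unit, with no p. The arrays of a group share their cell type, so r mostly reflects 3 group means. Closest to Areg were Hspd1 (r = 0.991), a mitochondrial chaperone, Hyou1 (0.989), a chaperone of the endoplasmic reticulum, and Kng2 (0.988), a kininogen. Kng2 averaged 10.28 in cultured TII, 6.13 in fresh TI and 7.67 in fresh TII cells. Closest to Egfr were Vldlr (0.949), a lipoprotein receptor, Cyp1b1 (0.932) and Tlcd5 (0.897). Closest to Erbb2 were Ezr (0.952), which links actin to the apical membrane, Enpp2 (0.941), which makes lysophosphatidic acid, and Med13l (0.941). Enpp2 averaged 6.23 in cultured TII, 6.44 in fresh TI and 8.46 in fresh TII cells. For Tgfa they were Ldlrad1 (0.893), Rab15 (0.877) and Huwe1 (0.874), and for Erbb3 on U29339_at they were Epb41l4b (0.931), Cxcl10 (0.885) and Cd59b (0.885). Hbegf had the weakest neighbours, led by Pdp1 (0.717), Igfbp2 (0.715) and Cd55 (0.680).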
